A study of Mus musculus with 2 samples.

Results

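Inflammasomes are protein assemblies through which macrophages answer danger and infection in the cytosol. A sensor recognises its trigger and, directly or through the adaptor ASC (gene Pycard), recruits caspase-1, which matures interleukin-1 beta and interleukin-18 and cuts gasdermin D. The freed part of gasdermin D forms pores in the plasma membrane and leads to pyroptosis, a lytic form of cell death. In a parallel route, caspase-11 (mouse gene Casp4) binds bacterial lipopolysaccharide in the cytosol and cuts gasdermin D itself.

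The 8 genes described here are the sensors Nlrp3, Naip5, Nlrc4 and Aim2, the adaptor Pycard, the inflammatory caspases Casp1 and Casp4, and the pore former Gsdmd. A gene was read from every probe set that the platform annotation assigns to that gene alone. By this rule 7 of the 8 genes, among 18193 named genes, were measured by 9 probe sets in all, 3 of them for Pycard and 1 for each of the others. No probe set named Nlrc4 alone, and it was not analysed here.

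RNA came from peritoneal macrophages of C57BL/6J mice aged 8 weeks, with no engineered allele named in the labels, and each group was hybridised to 1 Affymetrix array. The resident group was taken from untreated mice, and the elicited group was taken 3 days after 1 mL of 3% thioglycollate, an irritant broth, had been injected into the peritoneal cavity. Cells were enriched by adherence to plastic, for 2 h in the protocol and overnight in the series description, and both groups were cultured. How many mice were pooled for an array is not stated in these sources. With 1 array per group no difference carries a replicate error and none was tested. Ratios are elicited over resident signal, given as a fold or on the log2 scale, and a gene is called higher or lower past 2-fold when its signals differ by 2-fold or more. The only error that could be measured was the spread between probe sets of 1 gene on these arrays, an SD of 0.48 in log2 ratio (4465 genes), which holds no variation between animals or cultures.

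Background was set at a floor of 82.2, the 95th percentile of the signals of gene families thought silent in macrophages, and a gene is called measured when it was above the floor on at least 1 array. The cells on each array were checked against marker lists. Of all measured genes, 11.8% were lower and 8.04% higher past 2-fold in elicited cells. Of 8 pan-macrophage genes, 1 was higher and 2 were lower past 2-fold in elicited cells, and their summed signals were 141135 (resident) and 137236 (elicited). Of 8 genes that mark resident large peritoneal macrophages, 7 were lower past 2-fold (102654 and 5846). Of 6 monocyte genes, 3 were higher and 2 lower past 2-fold (54920 and 57580). Markers of other cells differed as well. Lower past 2-fold were 6 of 9 measured markers of B cells (29435 and 8149), 3 of 4 dendritic cell (2743 and 232), 5 of 5 mast cell (2404 and 110), 3 of 4 neutrophil (12450 and 8376) and 2 of 4 T cell markers, with 1 T cell marker higher (733 and 393), while 6 of 8 mesothelial and fibroblast markers were higher past 2-fold (554 and 11751). The dendritic cell markers Flt3, Itgae and Xcr1, the mast cell markers Hdc and Ms4a2, the neutrophil markers S100a9, Elane, Mpo, Ltf, Ngp and Cxcr2, the T cell marker Cd3e and the stromal markers Msln and Lum were at or below background on both arrays. With elicited RNA, none of 4 dendritic cell, none of 5 mast cell and 1 of 4 T cell markers exceeded background. The others could only come out lower, their ratios being bounds against the floor. Of the 8 mesothelial and fibroblast markers, 3 exceeded background with resident RNA, and the others could only come out higher. Of all markers with a probe set, 3 of 7 dendritic cell and 5 of 7 mast cell were lower past 2-fold. Of the mesothelial and fibroblast markers, 6 of 10 were higher. The part of these cells in the results below was not tested. In such bulk RNA, fewer cells of a type and less RNA per cell cannot be told apart.

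The stretches upstream of 4 of the genes are shown because 2 of them, Casp1 and Casp4, are neighbours on the chromosome with no annotated gene between them and had ratios of opposite sign, while Nlrp3 was lower on the elicited array and Pycard had nearly equal signals. Each is the 250 bases before a RefSeq transcript start (GRCm38.p6), and capitals mark matches to the motifs named after them.

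Casp1: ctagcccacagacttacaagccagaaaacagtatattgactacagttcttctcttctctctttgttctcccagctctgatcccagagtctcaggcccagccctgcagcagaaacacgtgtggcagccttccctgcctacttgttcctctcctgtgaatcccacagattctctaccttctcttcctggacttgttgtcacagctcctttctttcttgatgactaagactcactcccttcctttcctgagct

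Casp4: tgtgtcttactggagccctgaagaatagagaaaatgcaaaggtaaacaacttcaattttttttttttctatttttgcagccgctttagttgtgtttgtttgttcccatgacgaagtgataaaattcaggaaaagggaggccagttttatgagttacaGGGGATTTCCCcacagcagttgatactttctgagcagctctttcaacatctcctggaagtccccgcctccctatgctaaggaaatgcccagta

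Nlrp3: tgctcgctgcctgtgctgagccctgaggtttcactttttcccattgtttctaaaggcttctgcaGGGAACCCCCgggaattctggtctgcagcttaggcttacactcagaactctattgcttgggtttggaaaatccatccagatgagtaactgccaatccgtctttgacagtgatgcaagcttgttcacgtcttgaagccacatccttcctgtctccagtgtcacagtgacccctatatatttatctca

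Pycard: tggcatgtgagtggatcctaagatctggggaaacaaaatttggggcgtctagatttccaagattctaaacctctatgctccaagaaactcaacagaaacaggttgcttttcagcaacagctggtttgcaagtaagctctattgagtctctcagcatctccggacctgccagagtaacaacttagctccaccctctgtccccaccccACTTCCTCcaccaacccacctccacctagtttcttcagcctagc

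These windows are chr9:5298267-5298516 for Casp1, chr9:5308599-5308848 for Casp4 and chr11:59541319-59541568 for Nlrp3, all on the plus strand, and chr7:127993868-127994117 for Pycard on the minus strand. Both strands were searched for 6 motifs. Matches to the NF-kappaB consensus lie in the Casp4 window, where 2 overlapping matches span bases 93 to 83 before the start, and in the Nlrp3 window, from base 186 to base 177 before the start. Of 32851 promoter windows of this length, 3.9% hold such a match. The Pycard window holds a PU.1 site (GAGGAAGT, 2.44% of windows) on the strand opposite to the gene, 44 to 37 bases before the start. The Casp1 window holds none of the 6. None of the 4 windows holds a gamma-activated site (TTCNNNGAA, 7.02% of windows), an interferon regulatory factor site (GAAANNGAA, 7.13%), an AP-1 site (TGANTCA, 6.75%) or a TATA box (TATAAA, 12.4%). Windows of Aim2, Nlrc4 and Naip5, and the windows at a further start of Nlrp3 and of Casp4, reach into the annotated gene and are not shown. A match is a run of letters and was not examined for binding.

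Naip5 and Nlrp3 were the 2 of 7 measured genes that were lower past 2-fold in elicited cells, and none was higher past 2-fold. Of the 11499 genes above background on at least 1 array, 11.8% were lower and 8.04% higher past 2-fold. The ratio was below 1 for 4 of the 7 genes, as it was for 51.9% of all measured genes. The median log2 ratio of the 7 was -0.63, against -0.03 for all measured genes. The order of the ratios, from Naip5 through Nlrp3, Gsdmd, Casp4, Pycard and Aim2 to Casp1, spanned log2 ratios from -1.76 to 0.58. Gaps between neighbours in that order were 0.75 between Casp4 and Pycard, 0.68 between Naip5 and Nlrp3 and 0.40 or less elsewhere. The probe-set SD gives 0.68 for a difference of 2 genes, and no gap was much larger, so the order is not resolved between neighbours. The gap between Casp4 and Pycard also rests on the brightest Pycard probe set. With the mean of the probe sets the log2 ratios were -0.63 for Casp4 and -0.55 for Pycard.

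**Figure D1:**
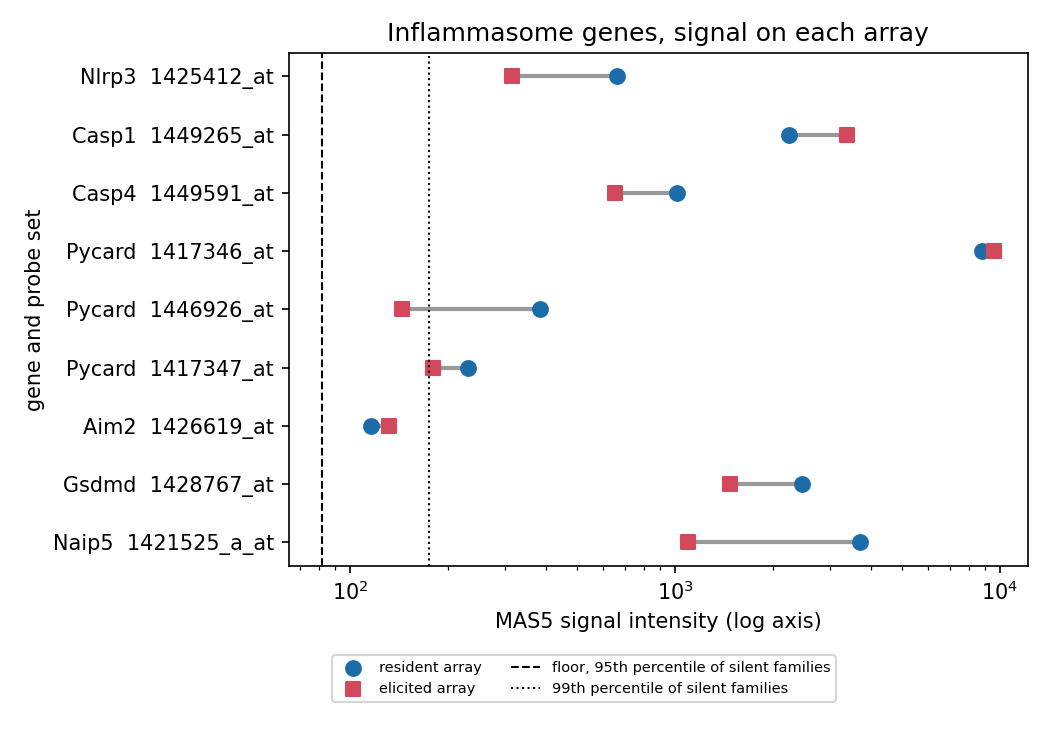
Signal of each of the 9 probe sets (rows) on the resident array (circles) and the elicited array (squares), on a log axis of MAS5 signal intensity, with 1 array per group. Vertical lines mark the 95th (82.2) and 99th (174.4) percentile of gene families thought silent in macrophages. The Naip5 squares and circles lie farthest apart (3719 and 1096), those of the brightest Pycard probe set nearly touch, and both Aim2 points lie between the lines.

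Among the sensors, Naip5 had the largest difference. Naip5 binds bacterial flagellin in the cytosol and passes the signal on through NLRC4. Its probe set (1421525_a_at) read 3719 in resident and 1096 in elicited cells, 3.39-fold lower (log2 ratio -1.76). Of all measured genes, 3.7% had a lower ratio. Within its decile of genes by mean signal, where the median log2 ratio was 0.08, the share was 2.5%. The ratio stayed past 2-fold under all 10 alternative processings, from -2.06 to -1.45. Naip genes are related copies in a cluster, and Naip2, Naip5 and Naip6 may share hybridisation, so a signal cannot be given to 1 copy with certainty.

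The other measured Naip genes pointed the same way with smaller differences. Naip2, a sensor of the type III secretion rod protein, had signals of 3512 and 1836 (log2 ratio -0.94). Naip6, a second flagellin sensor, had signals of 1076 and 568 (log2 ratio -0.92). Neither reached 2-fold as deposited, while Naip2 did in 3 and Naip6 in 1 of 10 alternatives. The log2 ratio of Naip5 minus theirs was -0.83 and -0.84. The probe-set SD of such a difference is 0.68, so a larger change of Naip5 than of these 2 genes is not resolved. All 3 were below 0 under the 10 alternatives. Naip1 was not analysed here.

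Nlrp3 senses potassium efflux and other signs of membrane and organelle damage, and in many macrophages its transcription must first be raised by priming signals. Its probe set (1425412_at) read 664 in resident and 314 in elicited cells, 2.11-fold lower (log2 ratio -1.08), and 10.3% of measured genes had a lower ratio. The difference lies just past the threshold. It came to -0.77 with equal medians of the arrays, -0.73 with quantile normalization, -0.78 with the loess trend removed and -0.91 with the floor added to the signals. Measured from the median of all genes under the same processing, Nlrp3 lay between -1.08 and -0.84.

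Aim2, the sensor of double-stranded DNA in the cytosol, was dim on both arrays. Its probe set (1426619_at) had signals of 116 and 132, above the floor of 82.2 but below the 99th percentile of the silent families, 174.4. The log2 ratio of 0.19 was within the probe-set SD and took values from -0.11 to 0.71 over the alternatives, so these arrays give no direction for Aim2.

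**Figure D2:**
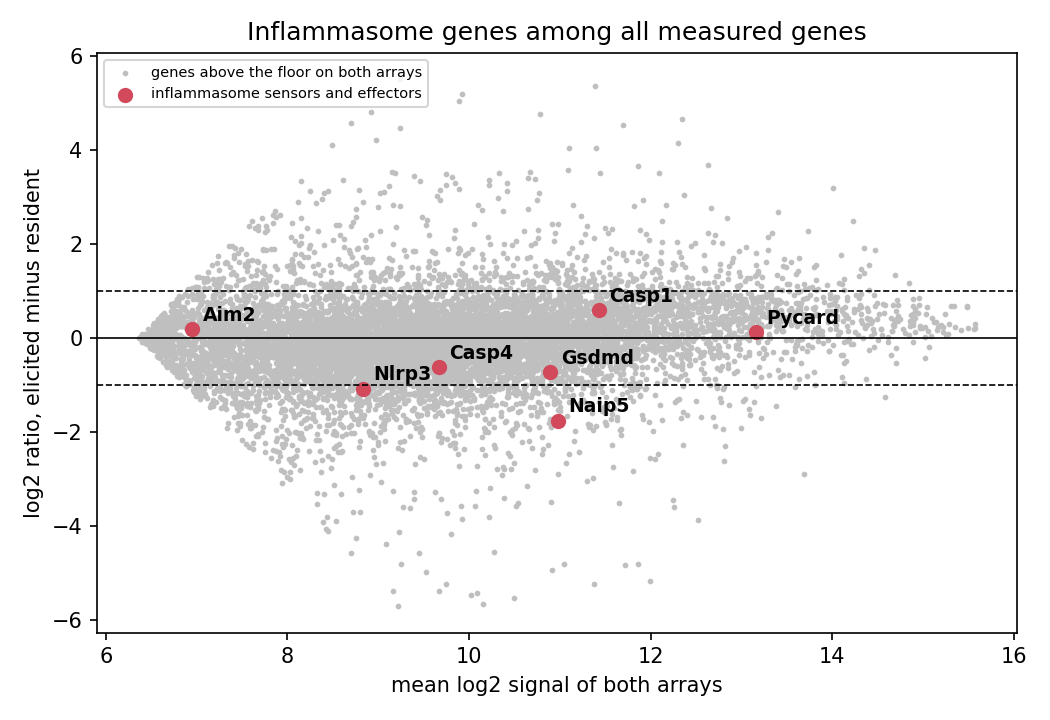
Log2 ratio of elicited minus resident signal against the mean log2 signal of both arrays, with 1 point for each of the 9820 genes whose signals both exceeded the floor; dashed lines mark 2-fold. The 7 inflammasome genes are labelled in red, with Naip5 (-1.76) and Nlrp3 (-1.08) below the lower line and the other 5 between the lines.

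The adaptor Pycard was nearly equal on the arrays by its brightest probe set and lower by the others. ASC, its product, joins the pyrin domain of NLRP3 or AIM2 to the recruitment domain of caspase-1. The brightest probe set (1417346_at) had signals of 8801 and 9578 (log2 ratio 0.12). A second (1446926_at) had signals of 383 and 145, a log2 ratio of -1.40, and the third (1417347_at) had 231 and 180, a log2 ratio of -0.36. The 2 dim probe sets thus pointed the other way, and 1446926_at was below the 99th percentile of the silent families on the elicited array. With the mean of the 3 probe sets the log2 ratio of Pycard was -0.55. With the brightest alone it changed sign with the scaling, from 0.43 with equal medians to -0.25 with quantile normalization. Bright genes as a whole leaned higher on the elicited array, with a median log2 ratio of 0.41 in the brightest decile, to which Pycard belongs.

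The 2 inflammatory caspase genes lie side by side on the chromosome and had ratios of opposite sign, both under 2-fold. Casp1, whose product is the common effector of the NLRP3, NAIP and AIM2 inflammasomes, had signals of 2250 and 3375 (1449265_at), 1.5-fold higher on the elicited array (log2 ratio 0.58). Casp4 had signals of 1013 and 655 (1449591_at), 1.55-fold lower (log2 ratio -0.63). The log2 ratios of the pair differed by 1.21, a 2.32-fold shift of Casp1 relative to Casp4 that a common scaling factor does not touch, and by 0.90 to 1.21 over the alternatives. The probe-set SD for such a difference is 0.68, with 1 probe set for each gene, so a divergence of the pair is not established. Taken singly, the ratios were 1.21 (Casp1) and -1.3 (Casp4) probe-set SDs. The median log2 ratio in their deciles by mean signal was 0.21 for Casp1 and -0.1 for Casp4. The signs of both ratios held under all 10 alternatives.

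Gsdmd, the pore-forming substrate of both caspases, had signals of 2461 and 1474 (1428767_at), 1.67-fold lower on the elicited array (log2 ratio -0.74). It was within 2-fold, except when the arrays were scaled on the spiked hybridisation controls, which gave -1.04. Those controls, added in equal amounts by design, read 1.23-fold higher with elicited RNA, in 9 of 9 probe sets. The log2 ratio of Casp1, whose product cuts gasdermin D, minus that of Gsdmd was 1.32, and 1.22 to 1.32 over the alternatives.

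**Figure D3:**
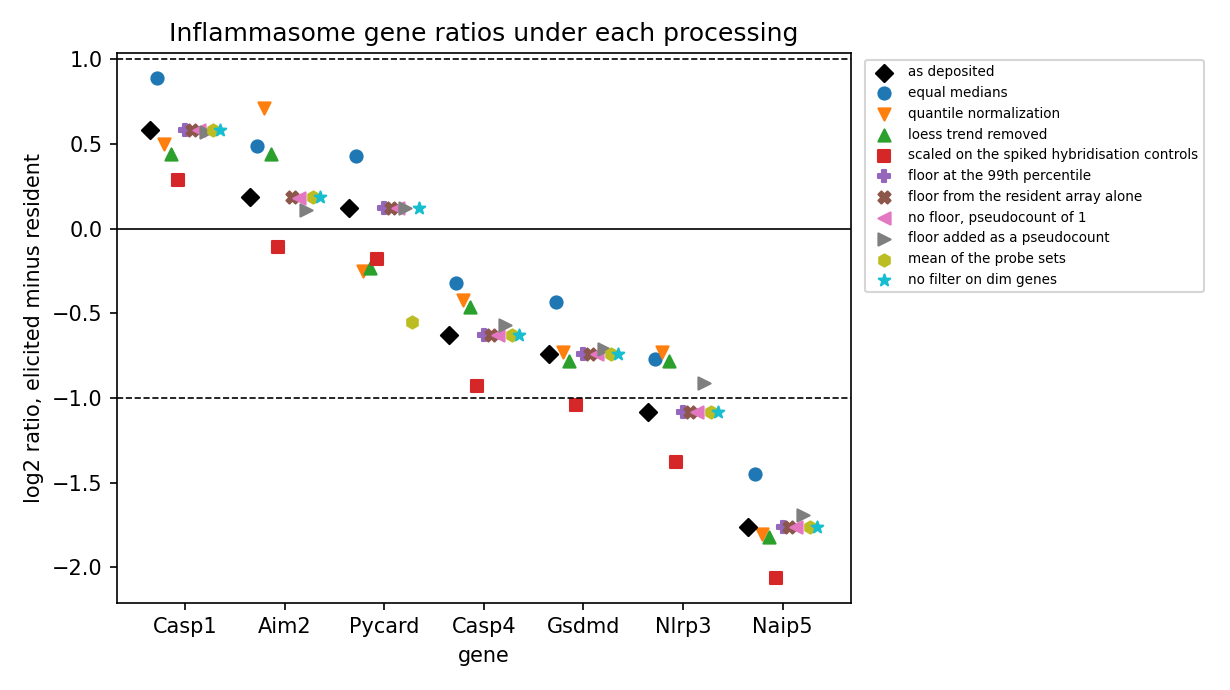
Log2 ratio of elicited minus resident signal for each of the 7 measured genes (columns) as deposited (black diamonds) and under each of 10 alternative processings (other symbols); dashed lines mark 2-fold, and no replicate error exists. Naip5 stays below the lower line throughout (-2.06 to -1.45), Nlrp3 lies on either side of it (-1.38 to -0.73), and Pycard and Aim2 lie on either side of 0.

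Around these genes, 106 further genes of the pathway were listed by role, of which 90 had a probe set of their own and 87 were above background on at least 1 array. Of the 87, 14 were lower and 7 higher past 2-fold in elicited cells, with a median log2 ratio of -0.27 (all measured genes, 11.8% and 8.04%, median -0.03). In the list of related sensors 2 of 11 were lower and 1 was higher past 2-fold. Nod1, a cytosolic sensor of bacterial peptidoglycan, had signals of 742 and 288 (log2 ratio -1.37). Nlrc5, a transactivator of MHC class I genes, had signals of 672 and 302 (-1.15) and was past 2-fold in 6 of 10 alternatives. Ifi204, a DNA sensor of the family of Aim2, went the other way with 324 and 755 (1.22). Nlrp6 and Nlrp12 were at or below background on both arrays.

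**Figure D4:**
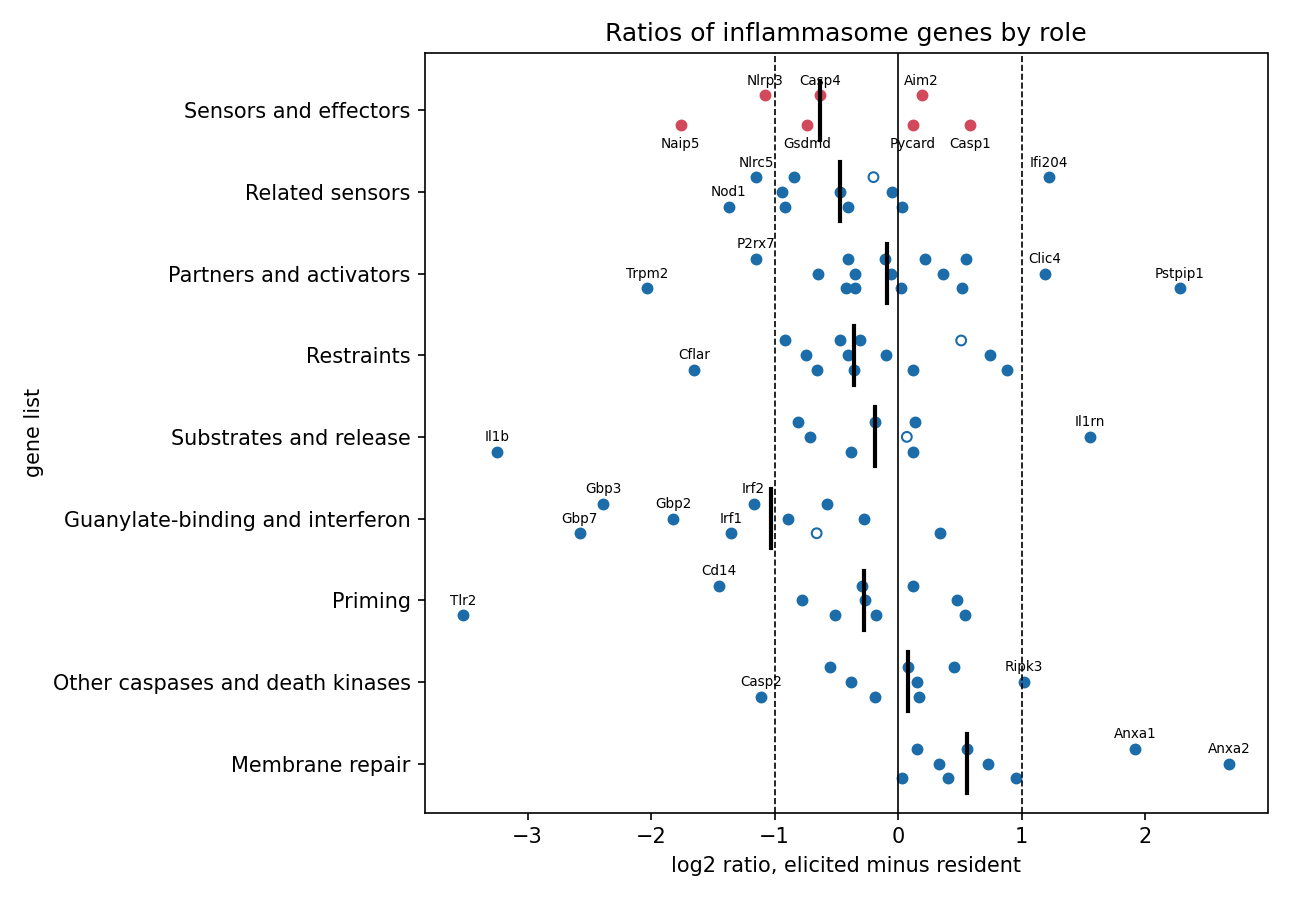
Log2 ratio of elicited minus resident signal for every measured inflammasome gene, grouped by role, with 1 array per group; filled points were above the floor on both arrays, open points are bounds against it, black bars are list medians and dashed lines mark 2-fold. The guanylate-binding and interferon list has the lowest median (-1.03), and Tlr2 (-3.52) and Il1b (-3.25) are the lowest single genes.

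The genes that couple interferon to caspase-11 leaned lower on the elicited array. Guanylate-binding proteins coat bacteria in the cytosol and expose their lipopolysaccharide, and IRF1 and IRF2 are transcription factors that drive several of these genes, Irf2 being known as an activator of Gsdmd. Of the 10 measured genes 5 were lower past 2-fold and none higher (11.8% and 8.04% of all measured genes), and the list median of -1.03 ranged from -1.33 to -0.72 over the alternatives. Gbp7 had signals of 1768 and 297, 5.96-fold lower. Gbp3 had 1409 and 269 (5.23-fold) and Gbp2 3553 and 1006 (3.53-fold). Genes of this family resemble each other, and hybridisation between copies cannot be told apart here. Irf1 was 2.56-fold lower (3134 and 1226) and Irf2 2.25-fold lower (2167 and 962), the latter past 2-fold in 9 of 10 alternatives. Irf8, known as a regulator of the Naip genes, had 4427 and 2953 (log2 ratio -0.58). Irgm1, an immunity-related GTPase, was the 1 gene of the list with a ratio above 0, with 823 and 1042. Markers of resident large peritoneal macrophages (7 of 8) and of B cells (6 of 9) were lower past 2-fold on the same array. So were 3 of 4 dendritic cell markers, all of them bounds against the floor. The dendritic cell markers Flt3, Itgae and Xcr1 did not exceed background on either array. The part of all these cells was not tested.

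The substrates split. Il1b, the main cytokine cut by caspase-1, had signals of 1358 and 143, 9.48-fold lower on the elicited array, where it was below the 99th percentile of the silent families. Il18, the second such cytokine, had 1440 and 1108 (log2 ratio -0.38), and Il1a, an alarmin released by the same pores, had 441 and 253 (-0.81). Il1rn, the receptor antagonist of interleukin-1, was 2.92-fold higher (1106 and 3232), in each of its 3 probe sets. The log2 ratios of Il1rn and Il1b thus differed by 4.79. Il18bp, the decoy of interleukin-18, had 181 and 111 (-0.71). Il1b and Il1rn were the 2 of 9 measured genes of this list past 2-fold, 1 lower and 1 higher (11.8% and 8.04% of all measured genes). Ninj1, which ruptures the membrane after the pores have formed, had 17625 and 19414.

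Of the priming list, which holds receptors and signalling proteins upstream of Nlrp3 transcription, 2 of 10 measured genes were lower past 2-fold and none higher, a share not far from the 11.8% and 8.04% of all measured genes. Tlr2, a receptor for bacterial lipoproteins, had signals of 10888 and 947, 11.5-fold lower. Cd14, a lipopolysaccharide coreceptor, had 17665 and 6481, 2.73-fold lower. The others were within 2-fold, among them the NF-kappaB subunit gene Rela (3972 and 2308), the adaptor gene Ticam1 (317 and 461) and the ubiquitin ligase gene Traf6 (356 and 250). Tlr4, the lipopolysaccharide receptor, had 899 and 1250 (log2 ratio 0.48), while its 3 probe sets above background ran from -0.41 to 0.48 and so gave no common direction.

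Partners and activators of NLRP3 and of other sensors had no common direction. Of 16 measured genes, 2 were higher and 2 lower past 2-fold, near the shares of all measured genes (8.04% and 11.8%). The list median was a log2 ratio of -0.09, against -0.03 for all measured genes. Trpm2, a calcium channel opened by oxidative stress, had signals of 987 and 242, 4.08-fold lower, by the brighter of its 2 probe sets. The other had a log2 ratio of -0.84, and with their mean the log2 ratio was -1.43. P2rx7, the ATP-gated channel that lets potassium out, had 4224 and 1906, 2.22-fold lower, with its 3 probe sets from -1.47 to -0.41 in log2 ratio. Pstpip1, a pyrin-binding cytoskeletal adaptor, was 4.86-fold higher (418 and 2033). Clic4, a chloride channel protein, was 2.28-fold higher (3305 and 7536) and past 2-fold in 6 of 10 alternatives. Nek7, the kinase that NLRP3 binds on activation, had 5113 and 4024, and Btk, a kinase that acts on NLRP3, had 2805 and 1792.

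Of the 13 measured genes listed as restraints, 1 was lower past 2-fold and none higher (11.8% and 8.04% of all measured genes). It was Cflar, the inhibitor of caspase-8, with signals of 2917 and 931 (3.13-fold lower) and 5 probe sets between -2.16 and -1.04 in log2 ratio. The phosphatase gene Ptpn22 had 1114 and 587 (-0.92), and the anti-apoptotic Bcl2 had 509 and 303 (-0.75). Fbxl2, a ubiquitin ligase subunit, had 127 and 234 (0.88), and the deacetylase gene Sirt2 had 2380 and 3971 (0.74). Il10 was at or below background on both arrays.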

How the data were processed

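RNA of resident and thioglycollate-elicited peritoneal macrophages was measured on 1 Affymetrix array each. The authors deposited 1 linear signal intensity per probe set (45101 per array), for which the submitters' processing notes name MAS5 with no version. Detection calls were not used here. Trimmed means were the same on both arrays, so the deposited scale was kept. Of the probe sets, 932 named several genes and 9211 none here, and they were left out with the array controls. Symbols were updated by gene ID (34754 of 34958) to the GRCm38.p6 RefSeq table, and array coordinates were not used here.

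Background was taken from 126 probe sets of olfactory, vomeronasal, taste receptor and keratin-associated genes, thought silent in macrophages. Its 95th percentile over both arrays (82.2) was the floor to which lower signals were raised. A gene was represented by its probe set of highest mean log2 signal, and genes at or below the floor on both arrays were left out. Alternatives changed the scaling, the floor, how probe sets were combined and whether dim genes were kept, 10 in all. The scalings by equal medians, quantiles and loess were tested on simulated data with known fold changes. The deposited scale was run on the same data with no criterion set, and the other alternatives were not run on them. The arrays' number limits the precision of all values.

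The 8 genes, the lists and the alternatives were chosen with earlier results of these data known. All 8 genes are named, and from each list up to 5 genes of largest absolute log2 ratio. Nlrp6, Nlrp12, Il10, Irf8, Irgm1, Ninj1, Tlr4, Nek7, Mlkl, Casp8, Chmp3 and Pdcd6ip were added after their values were seen. Python 3.11.15, numpy 2.4.6, pandas 2.3.3, statsmodels 0.14.6 and matplotlib 3.10.9 were used.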

Additional observations from a re-analysis of the deposited data

How the results depend on the processing

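Of the 7 measured genes, 2 were lower past 2-fold in elicited cells as deposited. The count was 1 with equal medians, with quantile normalization, with the loess trend removed and with the floor added as a pseudocount, Nlrp3 being the gene that left it, and 3 with the arrays scaled on the spiked hybridisation controls, where Gsdmd joined. The share of all measured genes lower past 2-fold moved as well, from 11.8% as deposited. It was 7.35% with equal medians, 7.99% with quantile normalization and 9.25% with the loess trend removed. With the floor added it was 9.44%, and on the hybridisation controls 18.4%. None of the 7 genes was higher past 2-fold under any of the 10 alternatives. The median of the 7 ranged from -0.93 to -0.32. Of the 87 further genes, 7 were higher and 14 lower past 2-fold as deposited (8.04% and 11.8% of all measured genes). With equal medians 11 of 87 were higher and 10 lower (all measured genes, 14.2% and 7.35%). On the hybridisation controls 4 of 86 were higher and 23 lower (all measured genes, 5.04% and 18.4%). The median of these further genes ranged from -0.57 to 0.03. Each scaling also shifted all genes, whose median of -0.03 became 0.25 (equal medians), 0.16 (quantile), 0.07 (loess) and -0.30 (hybridisation controls). Among single genes, the mean of the probe sets moved Pycard to -0.55 and quantile normalization moved Aim2 to 0.71. With the floor at the 99th percentile Aim2 was left out, being dimmer than it on both arrays. No replicate could be left out, and no paired analysis was possible because each group has 1 array.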

Other observations

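Genes of membrane repair, which patch or shed membrane pierced by gasdermin pores, leaned higher on the elicited array. All 9 measured genes had a ratio above 1 as deposited, 2 of them past 2-fold (8.04% of all measured genes were higher past 2-fold and 51.9% had a ratio below 1), with a median log2 ratio of 0.56 that ranged from 0.26 to 0.87 over the alternatives. Anxa2, a calcium-dependent membrane-binding protein, had signals of 4271 and 27360 (6.41-fold higher), and its relative Anxa1 had 10766 and 40696 (3.78-fold), each by its brightest probe set. The other probe set of each above background was under 2-fold, with log2 ratios of 0.99 for Anxa2 and 0.64 for Anxa1, and the mean of both gave 1.84 and 1.28. The ESCRT-III subunit genes Chmp2a (4415 and 8526) and Chmp4b (10554 and 15570) had log2 ratios of 0.95 and 0.56, and the calcium sensor Pdcd6 had 0.73. The smallest ratios, of Chmp3 (0.03) and Pdcd6ip (0.15), changed sign under some alternatives, down to -0.27 and -0.44. Bright genes leaned the same way (median log2 ratio 0.41 in the brightest decile), as did 6 of 8 mesothelial and fibroblast markers. Only 3 of those 8 markers exceeded background with resident RNA, so the others could only come out higher. The part of signal level and of these cells was not tested.

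Other caspases and death kinases had a median log2 ratio of 0.08. Casp2, an initiator caspase, was 2.16-fold lower (2455 and 1138), and Ripk3, the kinase that starts necroptosis, was 2.02-fold higher (460 and 930), past 2-fold in 9 and 8 of 10 alternatives. The other 7 of 9 measured genes were within 2-fold (of all measured genes, 11.8% were lower and 8.04% higher past it). They include Casp8 (3693 and 3235), Mlkl, the executor of necroptosis (498 and 559), the adaptor gene Fadd (606 and 830), the nucleic acid sensor gene Zbp1 (390 and 268) and Apaf1 (1491 and 1145).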
